A study of Mus musculus with 10 samples.

Results

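Antigen presentation by the major histocompatibility complex (MHC) was followed in 10 cutaneous tumors of mice through 10 genes, 6 of the class I pathway (*B2m*, *H2-K1*, *H2-D1*, *Tap1*, *Psmb8*, *Psmb9*) and 4 of the class II pathway (*H2-Aa*, *H2-Ab1*, *Cd74*, *Ciita*). The genes were chosen by symbol, with earlier results of these data known. Each of the 10 was found as a single row among the 35275 genes listed for every tumor. All 10 passed the filter on low counts that left 15176 genes for testing. The comparisons asked whether class I and class II genes differed between tumors labelled *Ldha*-null and wild type, and how the classes stood to each other in each tumor.

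RNA-seq was made from 5 tumors labelled LDHA-/- and 5 labelled wild type, each described as coming from its own mouse. The study describes more sequenced tumors of each kind than these. It reports that no significant change of gene expression was detected with loss of *Ldha*. The study's models place *Cre* under hair follicle stem cell promoters (*K15CrePR* or *Lgr5CreER*) to drive tumors in which *p53* (fl/fl) is deleted, with floxed *Ldha* in the null arm, or use the carcinogens DMBA and TPA. Which model gave the sequenced tumors is not stated. The study times induction in young adults and harvest some weeks later by model, so the age of these mice depends on that model. Mice of both sexes on a mixed C57BL6/FVB background were used, and some tumors of the null arm were mosaic for Ldh activity. The labels name squamous carcinoma cells, but RNA was taken from fresh whole tumors with no sorting described. Nothing says how the tumors were spread over batches.

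Total counts ran from 12969508 to 17694201 per tumor. *Ldha* itself, the targeted gene, was at 246 to 1883 FPKM (fragments per gene, scaled for gene length and library total) in the tumors labelled null and at 340.1 to 2824 FPKM in those labelled wild type. Its log2 fold change was 0.33 ± 0.90 (SE, edgeR adjusted p = 0.999), so the messenger RNA did not separate the labels, and group names below are the labels' own. Whether the counted part of *Ldha* lies outside the deletion was not tested. Summed keratinocyte markers ranged from 195 to 35077 FPKM, and skeletal muscle markers summed to 74215 FPKM in *Ldha*-null tumor 1 against at most 157 FPKM elsewhere. *Vim* was lowest, at 198 to 1485 FPKM, in wild-type tumor 5 and in *Ldha*-null tumors 1 and 3, so results are also given without these 3.

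Class I molecules display peptides from inside nearly every nucleated cell. Proteasomes cut the peptides, the Tap transporter moves them into the endoplasmic reticulum, and a heavy chain paired with beta-2 microglobulin carries them to the surface. Class II molecules are alpha-beta pairs made mainly by dendritic cells, macrophages and B cells. They are guided by the invariant chain Cd74, and their genes depend on the coactivator Ciita. Interferon gamma induces both classes, class I through Irf1 and Nlrc5 and class II through Ciita, and both also have promoters with shared X and Y boxes.

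The promoters of *B2m*, *H2-K1* and *H2-Aa* are shown as examples of both classes, and their part in the members' levels was not tested. The windows run from 200 to 11 bases before the RefSeq transcription start on build GRCm38.p6, 5′ to 3′ on the gene's strand, and capitals mark any match on either strand to a Y box core (ATTGG), an X2 box core (TGACG) or a core of an interferon-stimulated response element (GAAANNGAA). The *B2m* window is chr2:122147487-122147676 on the plus strand, the *H2-K1* window chr17:34000344-34000533 on the minus strand, and the *H2-Aa* window chr17:34287834-34288023 on the minus strand.
B2m: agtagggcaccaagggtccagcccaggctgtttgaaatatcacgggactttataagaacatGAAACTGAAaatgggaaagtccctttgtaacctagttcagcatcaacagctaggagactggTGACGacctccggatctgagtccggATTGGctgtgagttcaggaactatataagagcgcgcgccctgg
H2-K1: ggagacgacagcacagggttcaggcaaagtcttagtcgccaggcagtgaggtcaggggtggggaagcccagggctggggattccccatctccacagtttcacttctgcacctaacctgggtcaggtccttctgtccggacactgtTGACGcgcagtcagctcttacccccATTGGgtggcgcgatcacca
H2-Aa: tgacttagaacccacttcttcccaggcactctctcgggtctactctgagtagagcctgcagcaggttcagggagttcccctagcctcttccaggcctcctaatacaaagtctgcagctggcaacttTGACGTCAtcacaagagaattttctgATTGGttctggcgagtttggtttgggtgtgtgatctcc
In *B2m* the X2 core began 78 bases before the start and the Y core 53 bases before it, and in *H2-K1* they began 55 and 30 bases before it. In *H2-Aa* the X2 core was found on both strands in overlapping letters, beginning 74 and 71 bases before the start, and the Y core began 48 bases before it. The response element core was found in *B2m* 139 bases before the start. RefSeq promoters matched 7 of the 10 members, the 6 of class I and *H2-Aa*. None was matched for *H2-Ab1*, *Cd74* or *Ciita*, so *H2-Aa* alone stands for class II in this tally. Of these 7, 6 held an X2 core, 4 a Y core and 1 a response element core, against 14.7%, 28.5% and 5.26% of 32851 promoter windows of the same length. The *Tap1* and *Psmb9* windows lie on opposite strands of nearly the same stretch, so their X2 match is 1 site counted under both genes. The *H2-K1* and *H2-D1* windows share near-identical stretches up to the X2 core. In both, a Y core followed by the same letters lies after the X2 core. Their X2 matches and these Y matches are therefore not independent either. All the matches given describe letters only.

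No member passed the test of genotype. edgeR's quasi-likelihood test called 0 of the 10 members at an adjusted p under 0.05, and it called 0% of all 15176 genes. At an unadjusted p under 0.05 it called 0 members, beside 3.96% of all genes. The genotypes overlapped in log2 CPM (counts scaled to the library total after TMM adjustment, as in edgeR) for every member, where 0.185% of all genes showed no overlap. The 95% intervals were wide: each of the 10 ran over more than a 4-fold span, none lay inside a 2-fold change either way, and their widths ran from 2.28 to 5.44 on the log2 scale. The data therefore cannot separate no difference from a moderate one. Where nothing else is said, errors are SEM with n = 5 tumors.

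*B2m*, the light chain of all class I molecules, measured 211, 1521, 490.3, 936 and 2750.4 FPKM in the *Ldha*-null tumors, given here and below in the order 1 to 5. The wild-type tumors 1 to 5 measured 530.2, 2624, 2055, 530.3 and 187 FPKM. *Ldha*-null tumors 2, 4 and 5 and wild-type tumors 2 and 3 were the high ones, and the genotypes overlapped fully. The means were 1182 ± 450.3 and 1185 ± 484 FPKM, and the log2 fold change was 0.0022 ± 0.71 (SE, edgeR adjusted p = 0.999).

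*H2-K1* and *H2-D1* encode the classical heavy chains that hold the peptide. *H2-K1* was at 158, 734, 301, 554 and 1114 FPKM in the *Ldha*-null tumors and at 123, 999, 772, 237 and 141 FPKM in the wild-type tumors. The same 5 tumors were high, and the log2 fold change was 0.37 (95% interval -0.98 to 1.72). *H2-D1* was at 325, 1508, 641, 1466.5 and 2355 FPKM in the *Ldha*-null tumors and at 681, 2284, 2262, 714 and 514 FPKM in the wild-type tumors. It varied least of the 10 members, 7.24-fold from lowest to highest, and its log2 fold change was -0.0065 (95% interval -1.14 to 1.13). The heavy-chain genes share near-identical stretches with each other and with the H2-Q genes, so reads may have been split between them.

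*Tap1* encodes a subunit of the peptide transporter. It was at 5.76, 29.5, 11.2, 31.0 and 54.3 FPKM in the *Ldha*-null tumors and at 3.64, 31.2, 40.5, 8.94 and 5.11 FPKM in the wild-type tumors. Of the class I members it had the highest log2 fold change, 0.57 (95% interval -0.91 to 2.05, edgeR adjusted p = 0.999), which is smaller than the spread within either genotype.

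*Psmb8* and *Psmb9* encode catalytic subunits that replace constitutive ones to form the immunoproteasome. *Psmb8* was at 7.13, 55.1, 12.0, 44.3 and 96.0 FPKM in the *Ldha*-null tumors and at 12.7, 94.0, 111, 20.3 and 6.49 FPKM in the wild-type tumors. *Psmb9* was at 8.77, 34.6, 9.65, 39.5 and 82.0 FPKM in the *Ldha*-null tumors and at 8.82, 61.6, 73.4, 12.3 and 3.73 FPKM in the wild-type tumors. Both were high in the same 5 tumors as *B2m*, and their log2 fold changes were -0.20 and 0.14. The *Tap1* and *Psmb9* rows overlap by 212 bases on opposite strands, and the library is not described as stranded, so fragments in the overlap cannot be assigned.

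**Figure D1:**
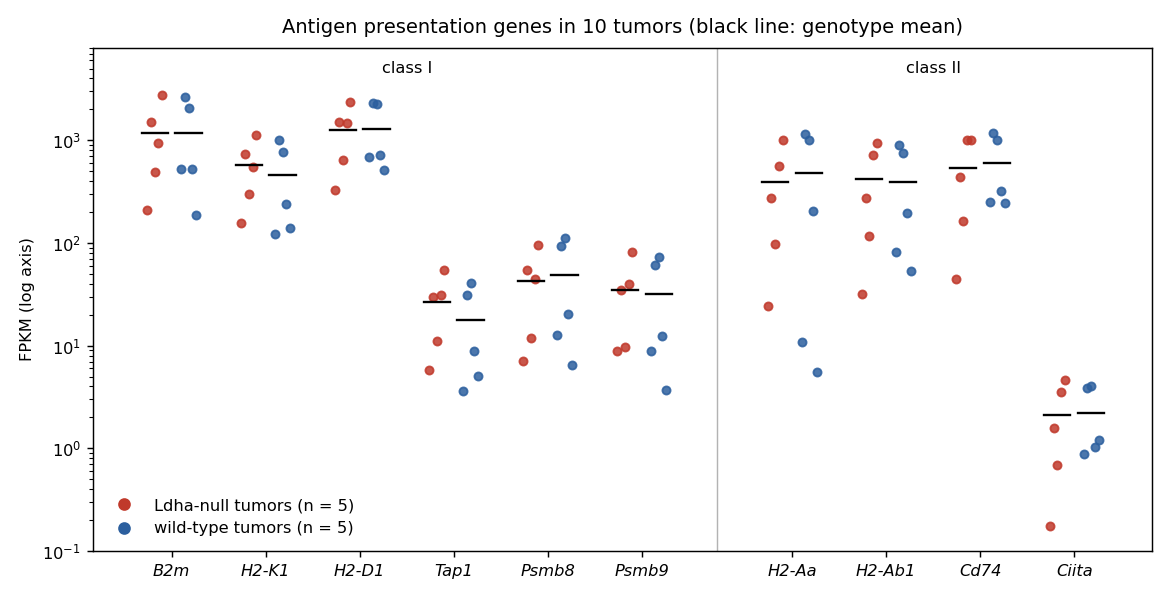
FPKM of the 10 members on a log axis in 5 Ldha-null tumors (red) and 5 wild-type tumors (blue), 1 point per tumor, with black lines at the genotype means. The genotypes overlap for each gene, and *H2-Aa* has 2 wild-type tumors far below the others, at 10.7 and 5.55 FPKM.

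*H2-Aa* and *H2-Ab1* encode the alpha and beta chains of the class II molecule I-A. *H2-Aa* was at 24.1, 272, 98.6, 558 and 1018 FPKM in the *Ldha*-null tumors and at 10.7, 1146, 1012, 204 and 5.55 FPKM in the wild-type tumors. It had the widest range of the members, 206-fold, and 1.3% of tested genes had a larger SD over the tumors. Its direction depended on the scale: edgeR, which fits mean counts, gave a log2 fold change of -0.31 (95% interval -3.03 to 2.41), whereas the mean log2 CPM was 1.10 higher in the *Ldha*-null tumors (exact permutation test, two-sided, p = 0.548, n = 5 and 5). The sign also differed for *H2-D1* and *Psmb8*, negative by edgeR, whose mean log2 CPM was 0.12 and 0.20 higher in the *Ldha*-null tumors. *H2-Ab1* was at 32.1, 272, 117, 716 and 939 FPKM in the *Ldha*-null tumors and at 81.3, 909, 746, 194 and 53.3 FPKM in the wild-type tumors, and its log2 fold change was 0.034 (95% interval -1.89 to 1.96).

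*Cd74*, the invariant chain, was at 44.5, 440.0, 163, 1011 and 1010.5 FPKM in the *Ldha*-null tumors and at 249, 1181, 1018, 321 and 245 FPKM in the wild-type tumors. The means were 534 ± 205 and 603 ± 205 FPKM. *Ciita*, which switches on class II genes, was the least abundant member, at 0.175, 1.59, 0.683, 3.56 and 4.58 FPKM in the *Ldha*-null tumors and at 0.885, 3.84, 4.04, 1.03 and 1.19 FPKM in the wild-type tumors. Its counts were 16 to 397 per tumor, and its row overlaps that of *Dexi* on the other strand. *Ldha*-null tumors 4 and 5 and wild-type tumors 2 and 3 were highest in both genes. The log2 fold changes were -0.21 for *Cd74* and -0.093 for *Ciita*.

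The exact permutation test of log2 CPM gave p from 0.238 (*Tap1*) to 0.881 (*H2-D1*) over the members, two-sided, where 0.00794 is the smallest p that 5 against 5 allows. Members varied more between tumors than most genes did: the SD of log2 CPM was 0.82 for *H2-D1*, 1.23 for *B2m*, 1.26 for *Cd74* and 2.69 for *H2-Aa*, beside a median of 0.64 over all tested genes.

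**Figure D2:**
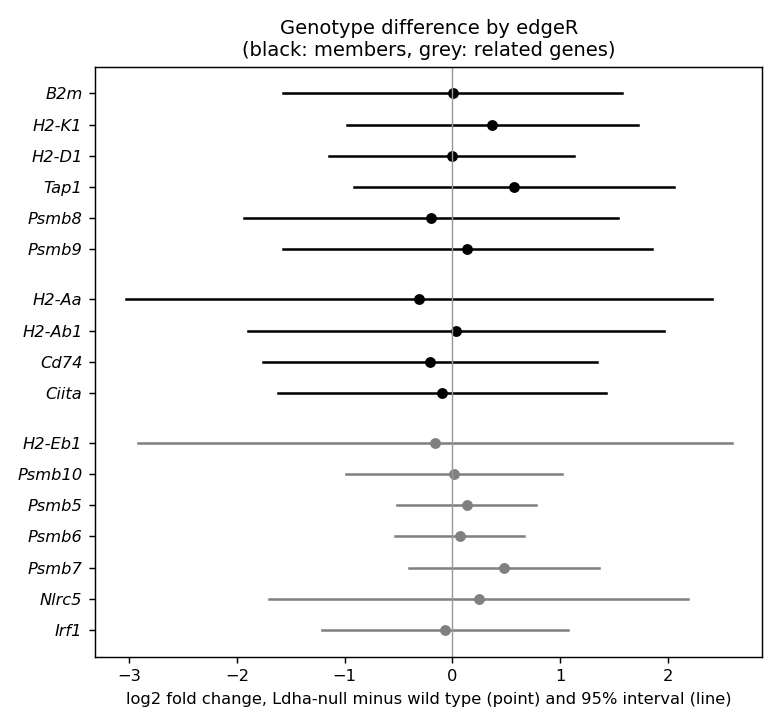
Log2 fold change of Ldha-null minus wild-type tumors by edgeR (points) with 95% intervals (lines) for the 10 members (black) and 7 related genes (grey). Every interval crosses 0, and that of *H2-Aa* runs from -3.03 to 2.41.

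For each tumor, the class I level was taken as the mean log2(FPKM + 0.1) of its 6 members and the class II level as that of its 4. The class I level was 5.32, 7.74, 6.14, 7.54 and 8.58 in *Ldha*-null tumors 1 to 5 and 5.69, 8.33, 8.35, 6.26 and 5.12 in wild-type tumors 1 to 5. The class II level was 3.31, 6.43, 5.12, 7.62 and 8.02 in the *Ldha*-null tumors and 4.43, 8.04, 7.89, 5.94 and 4.14 in the wild-type tumors. Class I spanned 10.96-fold and class II 26.7-fold from the lowest to the highest tumor. FPKM carries no TMM adjustment. The muscle-rich *Ldha*-null tumor 1, lowest in class II, had a TMM factor of 0.589, against 0.8808 to 1.203 in the others. Its FPKM values therefore stand lower than on the adjusted scale, which widens the class II span and those FPKM ranges in which it is lowest.

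Class I minus class II was 2.02, 1.31, 1.02, -0.076 and 0.56 on the log2 scale in the *Ldha*-null tumors and 1.26, 0.28, 0.46, 0.32 and 0.99 in the wild-type tumors. *Ldha*-null tumor 4 alone had a class II level above its class I level. The means were 0.97 ± 0.79 and 0.66 ± 0.44 (SD, n = 5 each), and their difference of 0.31 was smaller than either SD. Leaving out *Ldha*-null tumor 1 gave 0.043, and leaving out *Ldha*-null tumor 4 gave 0.57. Without wild-type tumors 1 and 5 it was 0.61. Taking class II as *Cd74* and *Ciita* alone was an unplanned alternative, as was leaving out wild-type tumors 1 and 5. With *Cd74* and *Ciita* alone, the means were 2.64 ± 0.70 and 1.85 ± 0.55 (SD), and their difference of 0.79 exceeded both SDs. That difference was 0.57 without *Ldha*-null tumor 1. These are descriptions with no test.

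**Figure D3:**
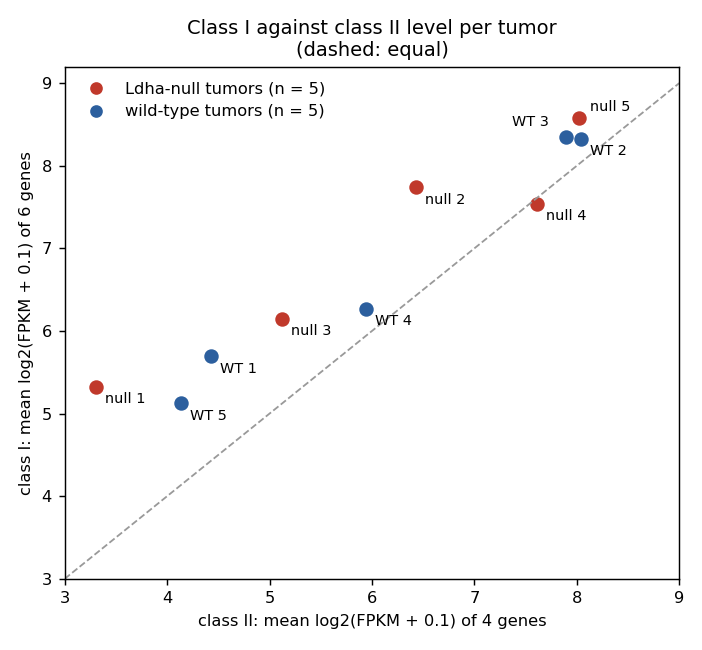
Class I level against class II level per tumor, each the mean log2(FPKM + 0.1) of its members, with red points for Ldha-null and blue for wild-type tumors. The points lie above the dashed line of equality except Ldha-null tumor 4, where class I minus class II is -0.076.

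Within the class II genes, *Ciita* kept a nearly fixed proportion to *Cd74*, from 0.322% to 0.487% of its FPKM over the 10 tumors, while *Cd74* itself ranged 26.6-fold. *H2-Aa* did not. It was 54.2% to 63.5% of *Cd74* in *Ldha*-null tumors 1 to 4 and wild-type tumor 4, and 97.0% to 101% in *Ldha*-null tumor 5 and wild-type tumors 2 and 3. It was 4.31% in wild-type tumor 1 and 2.27% in wild-type tumor 5.

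*H2-Eb1*, the beta chain of the class II molecule I-E, followed *H2-Aa*: it was 2.25% and 1.52% of *Cd74* in wild-type tumors 1 and 5 and 36.5% to 67.5% in the other 8. *H2-Ab1* was 32.6% and 21.7% of *Cd74* in these 2 tumors and 60.6% to 92.9% in the others. *H2-DMa*, a chain of the peptide-loading molecule H2-DM, was 16.4% and 5.24% of *Cd74* there, against 7.59% to 11.7% elsewhere. The class I heavy chains also differed in proportion: *H2-K1* was 18.1% and 27.4% of *H2-D1* in wild-type tumors 1 and 5, against 33.2% to 48.7% elsewhere. *H2-T23*, a nonclassical class I gene, was lowest against *B2m* in *Ldha*-null tumor 2, at 0.232%, and in wild-type tumors 1 and 5, at 0.475% and 0.667%. The mice were of mixed background, H2 genes differ between strains, and the reads were aligned to a C57BL/6J-based genome. The part of strain alleles in these proportions was not tested, and the H2 type of each mouse is not given in the labels.

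**Figure D4:**
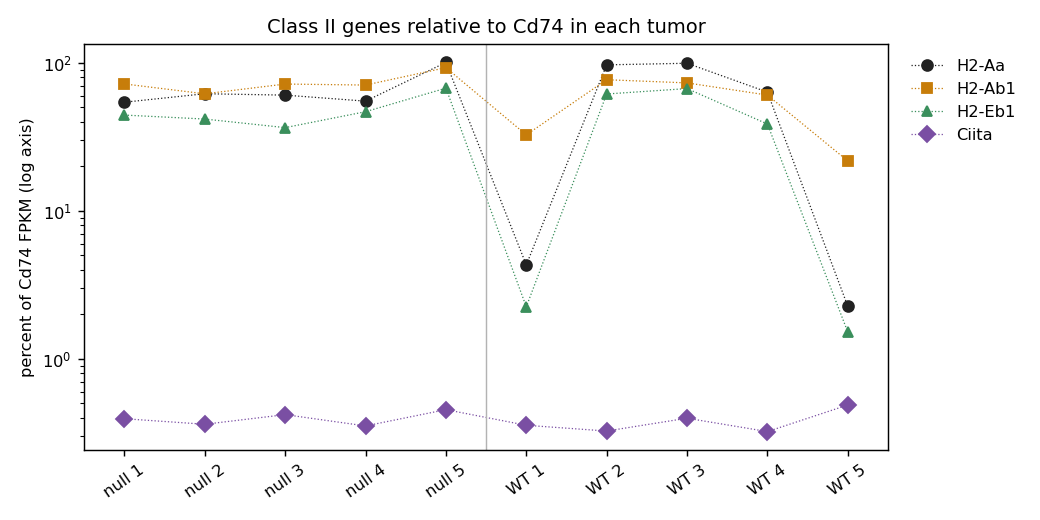
FPKM of *H2-Aa*, *H2-Ab1*, *H2-Eb1* and *Ciita* as percent of *Cd74* in each tumor, on a log axis, with Ldha-null tumors on the left and wild-type tumors on the right. *Ciita* stays between 0.322% and 0.487%, and *H2-Aa* and *H2-Eb1* drop to 4.31% or below in wild-type tumors 1 and 5.

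Without wild-type tumors 1 and 5, the edgeR log2 fold changes were -1.02 for *H2-Aa*, -0.58 for *H2-Ab1*, -0.53 for *B2m*, -0.47 for *Psmb9* and -0.16 for *H2-K1*, and 0 members and 0 genes passed the test.

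The immunoproteasome subunits spanned wider ranges than their constitutive partners. *Psmb5*, *Psmb6* and *Psmb7*, the constitutive catalytic subunits, spanned 1.76-fold, 1.304-fold and 2.52-fold over the tumors, against 17.1-fold for *Psmb8*, 21.96-fold for *Psmb9* and 7.36-fold for *Psmb10*. *Psmb8* was 3.96%, 33.0%, 5.48%, 28.2% and 57.3% of *Psmb5* in *Ldha*-null tumors 1 to 5 and 5.36%, 52.5%, 59.8%, 15.2% and 2.96% in wild-type tumors 1 to 5. *Psmb9* was 1.21% to 33.5% of *Psmb6*, and *Psmb10* was 6.14% to 114% of *Psmb7*. The highest were *Ldha*-null tumor 5 for the first and wild-type tumor 3 for the second.

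**Figure D5:**
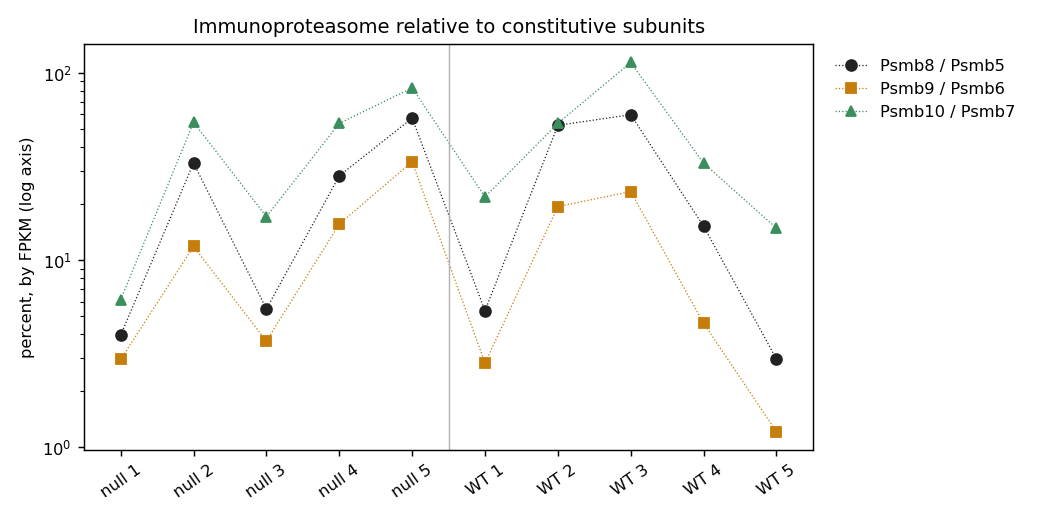
Immunoproteasome subunits as percent of the constitutive subunit each replaces, by FPKM on a log axis, in each tumor. *Psmb8* over *Psmb5* ranges from 2.96% to 59.8%, and both genotypes hold low and high tumors.

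The wider pathway was read from lists of further genes. Among 10 genes of class I loading and the immunoproteasome, 4 were above and 6 below 0 in log2 fold change, and their median was -0.047. Their smallest unadjusted p was that of *Erap1*, which trims peptides, at a log2 fold change of 0.58 (95% interval -0.023 to 1.19). *Calr*, *Pdia3* and *Psme1* followed, at -0.42, -0.40 and -0.24. These counts turned with single tumors: 6 were above 0 without *Ldha*-null tumor 1 (median 0.095) and 3 without *Ldha*-null tumor 5 (median -0.31). The 3 constitutive subunits had a median of 0.13, with *Psmb7* at 0.48. Without the muscle-rich *Ldha*-null tumor 1 their median was -0.083 and *Psmb7* was at 0.0037, and with limma-voom all 3 were negative.

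Of 17 nonclassical class I genes 14 were tested, 10 positive and 4 negative, with a median of 0.28, and without wild-type tumors 1 and 5 they were 5 positive and 9 negative, with a median of -0.35. *H2-Q10*, *H2-T24*, *H2-M2* and *H2-T10* had the smallest p, at log2 fold changes of 1.31, 0.71, -0.55 and 0.29. The value of *H2-Q10* was 0.22 without *Ldha*-null tumor 1. Of 14 class II accessory genes 10 were tested and all 10 were negative, with a median of -0.23. This sign rested on single tumors: without *Ldha*-null tumor 1, or without wild-type tumor 2, 5 were negative and 5 positive, and with limma-voom quality weights 2 were negative and 8 positive. *Ctsl* and *Ctss*, lysosomal proteases, were at -0.37 each, and *H2-DMb2* and *H2-DMa* at -0.40 and -0.37. Of 17 regulators 16 were tested, 10 positive and 6 negative, with a median of 0.16, and *Ifngr2*, *Rfx5*, *Nfyb* and *Creb1* had the smallest p, at 0.60, 0.43, 0.36 and 0.27. The value of *Nfyb* was 0.10 without *Ldha*-null tumor 1 and -0.058 without the 3 tumors lowest in *Vim*. None of these genes passed the test, none had an unadjusted p under 0.05, and the median over all tested genes was 0.025.

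Bulk RNA cannot tell fewer cells of a type from less RNA per cell. *Ptprc*, the pan-leukocyte surface gene, was at 1.88, 37.8, 12.3, 17.9 and 34.7 FPKM in the *Ldha*-null tumors and at 11.4, 39.0, 22.6, 15.4 and 6.06 FPKM in the wild-type tumors. Summed leukocyte markers, all 5 of them above 0 in every tumor, ranged from 49.1 to 1171 FPKM in the *Ldha*-null tumors and from 147 to 1198 FPKM in the wild-type tumors. Summed macrophage markers (9 of 9 above 0) ranged from 129 to 6419 and from 599 to 5724 FPKM, and T cell markers from 3.98 to 79.6 and from 4.502 to 80.8 FPKM. B cell markers summed to at most 10.1 FPKM, and *Ms4a1* and *Pax5* were at 0 in at least 1 tumor. Summed dendritic and Langerhans cell markers (9 of 10 above 0 in every tumor) ranged from 25.4 to 279 FPKM in the *Ldha*-null tumors and from 171 to 622 FPKM in the wild-type tumors. The highest sum was in wild-type tumor 5, low in class II, where *Fscn1* made up 612 FPKM of it. *Fscn1* was the largest part of this sum in every tumor. It ranged from 20.1 to 259 FPKM in the *Ldha*-null tumors and from 131 to 612 FPKM in the wild-type tumors. The ranges of this sum therefore describe *Fscn1* more than the rest of the list. The part of these cells in the members' levels was not tested.

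Over the 10 tumors, 25 relations between log2 CPM values were computed, each with a permutation p. *Ptprc* correlated with each of the 10 members, with Pearson's r from 0.696 for *Tap1* to 0.858 for *B2m* and Spearman's rho from 0.745 for *Psmb9* to 0.939 for *B2m*. The permutation p was 0.0243 for *Tap1* (Benjamini-Hochberg adjusted over the 25, 0.0243) and 0.00111 for *B2m* (adjusted 0.00198). Without the 2 tumors farthest from the median of *Ptprc*, r was 0.884 for *B2m*. It was 0.694 for *H2-Ab1*, 0.631 for *Cd74* and 0.632 for *Ciita*, and these relations did not pass over the 8 tumors left.

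*Ciita* correlated with *Cd74* at r = 0.987 (rho 0.903, permutation p = 4e-05, adjusted 0.00025) and with *H2-Ab1* at r = 0.903 (rho 0.879, permutation p = 0.00087, adjusted 0.00167). Its relation with *H2-Aa* was weaker, at r = 0.715 (rho 0.794, permutation p = 0.0206, adjusted 0.0224). Without wild-type tumors 1 and 5 the r of *Ciita* with *H2-Aa* was 0.986. Without the 2 tumors farthest from the median of *Ciita* it was 0.726 and no longer passed (exact permutation test, adjusted p = 0.0547).

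*Nlrc5*, the class I coactivator, spanned 1.66 to 52.5 FPKM and correlated with the 6 class I members at r from 0.849 for *B2m* to 0.973 for *Tap1*. The permutation p for *Tap1* was 1e-05, the smallest that the 100000 resamples can give (rho 0.988, adjusted 8.33e-05). Without the 2 tumors farthest from the median of *Nlrc5*, which were wild-type tumors 1 and 5, r ran from 0.861 to 0.932. In all, 25 of 25 relations passed over the 10 tumors, and 21 passed when wild-type tumor 5 and *Ldha*-null tumors 1 and 3 were left out. The 4 that did not were those of *Ptprc* with *Psmb9*, *H2-Ab1*, *Cd74* and *Ciita*. The share of all tested genes that would pass the same relations was not computed. These counts therefore do not set the members apart from other genes.

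All values of a tumor come from its 1 library. The class I level fell in 5 tumors on each side of its widest gap, of 1.27 on a log2 range of 3.45. With 5 tumors on each side, relations were not computed within either set or within a genotype. *Ifng*, the gene of interferon gamma, was listed at 0 in wild-type tumors 1 and 5 and at 0.0936 FPKM in wild-type tumor 4, and reached 2.14 and 1.98 FPKM in wild-type tumors 2 and 3. In the *Ldha*-null tumors it was at 0.0476, 0.0960, 0.110, 0.499 and 1.56 FPKM, so that *Ldha*-null tumor 2, high in class I, was low in *Ifng*. *Ifng* did not pass the filter on low counts, so its low values rest on few fragments. Its relation with the members was not tested.

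Among 13611 genes compared over the 10 tumors, the 5 whose centred log2 CPM profiles lay closest to the class I mean included *Ptprcap*, *Cd2*, *H2-Q4* and *Tap2*. Their root mean square differences were 0.26 for *Ptprcap* and 0.38 for *Tap2*, against 0.28 to 0.39 for the 6 members themselves and a median of 1.25 for the compared genes. The closest to the class II mean were *Batf2*, *Lck*, *Serpina3f*, *Fam26f* and *Cd6*, at 0.31 to 0.42. *Cd2*, *Lck* and *Cd6* are known as T cell genes. Of the class II members, *H2-Ab1* lay at 0.10 and *H2-Aa* at 1.25 from their mean.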

How the data were processed

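Messenger RNA of 10 tumors was enriched on oligo(dT) beads and sequenced on a HiSeq2500. Per the submitters' processing notes, CASAVA 1.8 and TopHat2 were used with genome mm10. The authors assigned fragments to genes by HTSeq (union mode), and the deposited counts are whole numbers. The FPKM values were computed by the authors and deposited beside the counts. No version of TopHat2 or HTSeq is given in the sources used here.

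The count test was edgeR 4.0.16 under R 4.3.3. The filter filterByExpr was applied (minimum count 10, minimum total 15) and left 15176 genes, which were scaled by TMM and compared by the quasi-likelihood F-test with no covariate. Benjamini-Hochberg adjustment ran over all tested genes, and 0.05 was the threshold. Log2 CPM used a prior count of 2. FPKM was used for levels and ratios, with 0.1 added before the logarithm. Total counts were 12969508 to 17694201 per tumor, and tumors of a genotype differed far beyond counting error (biological coefficient of variation 63.4%). The genotype p-values set the difference between the labels against the spread between these tumors. The relation p-values test the association of a pair of genes over the tumors. The members and lists were chosen with earlier results of these data known. Genes named are the members, their proteasome partners and regulators, up to 4 genes of smallest p from each other list, and the 5 profiles nearest to each class with a mean of at least 1 FPKM. *H2-Eb1*, *H2-DMa* against *Cd74*, *H2-T23*, the *Ifng* zeros and the proportions within tumors were chosen after their values were seen. Alternatives were DESeq2 1.42.0, other scalings and filters, limma 3.58.1, a replicate block and leaving out tumors. The edgeR and permutation steps were tested on simulated data. Some genes and relations that meet these rules are not reported here. Reads, alignments and isoforms were not analysed here.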

Additional observations from a re-analysis of the deposited data

Results flagged for a closer look

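Among 74 sets of 5 tumors examined (members, class levels and within-tumor proportions in each genotype), 5 held a tumor far from the other 4, and chance gives about 1 in 20. *H2-Aa* was 101% of *Cd74* in *Ldha*-null tumor 5, above the other *Ldha*-null tumors. *Cd74* was 108% of *B2m* in *Ldha*-null tumor 4 and 131% in wild-type tumor 5, each above the rest of its genotype. *H2-D1* was 275% of *B2m* in wild-type tumor 5. *H2-K1* was 37.8% of *H2-D1* in *Ldha*-null tumor 4, below the other *Ldha*-null tumors. Wild-type tumors 1 and 5 did not stand out by this rule in *H2-Aa* against *Cd74*, since they lie close to each other.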

How the results depend on the processing

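No alternative called a member, and the smallest adjusted p of a member in any of them was 0.876. The count of genes past the threshold was 0 in each alternative except DESeq2, which called 1. No member's fold change had passed the test, and 51 of 200 repeats changed its sign. The edgeR log2 fold change of *B2m* was -0.032 with upper-quartile factors and -0.0059 with a mean CPM of at least 5. With limma-voom all 10 members were above 0, including *Tap1* at 1.34 (limma adjusted p = 1.0) and *H2-K1* at 0.96, and the value was 0.40 for *H2-D1*, 0.58 for *Psmb8*, 1.31 for *H2-Aa*, 0.26 for *Cd74* and 0.55 for *Ciita*. With limma on log2(FPKM + 1) it was 0.031 for *Psmb8* and 0.88 for *H2-Aa*. With the replicate block it was 0.11 for *H2-D1*, 0.17 for *Psmb8* and 0.75 for *H2-Aa*, and 0 genes passed. Expression showed little sign that the numbers pair the tumors. Of 5 same-numbered pairs, 1 correlated above 0.1 (r from -0.511 to 0.551). Likewise, 1 of 5 tumors correlated best with its own number. Pairing by litter or batch was not tested. With wild-type tumor 5 and *Ldha*-null tumors 1 and 3 left out, the log2 fold change was 0.19 for *H2-D1*, 0.062 for *Psmb8*, 0.18 for *Cd74* and 0.34 for *Ciita*. Without wild-type tumors 1 and 5, chosen after seeing the data, it was -0.53 for *B2m*, -0.16 for *H2-K1*, -0.47 for *Psmb9* and -0.58 for *H2-Ab1*. Leaving out each tumor in turn gave ranges of -0.46 to 0.50 for *B2m*, -0.26 to 0.29 for *H2-D1*, -0.63 to 0.36 for *Psmb8*, -0.33 to 0.71 for *Psmb9*, -0.94 to 0.30 for *H2-Aa*, -0.43 to 0.57 for *H2-Ab1*, -0.57 to 0.16 for *Cd74*, -0.51 to 0.24 for *Ciita*, 0.23 to 1.11 for *Tap1* and 0.088 to 0.86 for *H2-K1*. *Tap1* was above 0 in each of its 20 alternatives, at 0.0065 without wild-type tumors 1 and 5. The cause was not tested. Class I minus class II differed between the genotypes by 0.019 to 0.79 over its alternatives, the largest with the unplanned use of *Cd74* and *Ciita* alone. Of the 25 relations, 21 to 25 passed, and the share over all tested genes was not computed. With 5 tumors a genotype, differences below the intervals given could not be detected.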
